A study of Mus musculus with 93 samples.

Results

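The 10 genes described here encode proteins that coat the hepatic lipid droplet or that build and hydrolyse the triglyceride it stores: Plin2, Plin3, Plin5, Cideb, G0s2, Pnpla2, Abhd5, Lipe, Mgll and Dgat2. They were chosen by name for these functions and not by a measured value, though with earlier results of these data known. They are 10 of the 53465 genes in the count table. The data are RNA-seq of whole livers from 93 male mice of 7 inbred strains, 4 of them classical (C57BL/6J, DBA/2J, A/J and 129S1/SvImJ) and 3 wild-derived (WSB/EiJ, CAST/EiJ and PWK/PhJ). All mice lived at thermoneutrality (30°C) from 6 wk of age, were put on a control diet (CD, 10% of energy from fat, 17% from protein and 73% from carbohydrate) or a western diet (WD, 40% fat, 17% protein and 43% carbohydrate) at 7 wk, stayed on it for 17 wk and were killed at 24 wk after a morning fast. The labels name no transgene, engineered deletion or drug treatment. The groups held 8 CD and 8 WD mice of C57BL/6J, 6 and 7 of DBA/2J, 5 and 6 of A/J, 7 and 6 of 129S1/SvImJ, 6 and 6 of WSB/EiJ, 7 and 8 of CAST/EiJ, and 6 and 7 of PWK/PhJ. Each strain was studied in 2 cohorts, and CAST/EiJ in 3, every one of which held both diets. The comparisons ask whether the transcripts of the droplet proteins respond to the WD and whether that response depends on genetic background.

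Hepatocytes store surplus fatty acids as triglyceride in droplets bounded by a phospholipid monolayer and covered with proteins. Perilipins shield the core from lipases, and perilipin 2 is the coat protein best known from the fatty liver. Triglyceride is hydrolysed in steps: adipose triglyceride lipase (encoded by Pnpla2) removes the first fatty acid with its coactivator CGI-58 (Abhd5) and is inhibited by G0s2, hormone-sensitive lipase (Lipe) hydrolyses mainly diglyceride, and monoglyceride lipase (Mgll) releases the last fatty acid. Diglyceride acyltransferase 2 (Dgat2) catalyses the final step of triglyceride synthesis, and Cideb acts in lipid transfer to droplets and in the loading of very low density lipoprotein.

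Levels are given as CPM (counts of a gene per 1000000 reads on genes, after scaling for library composition), as mean ± SD over mice. Fold changes (WD over CD) are on the log2 scale with their SE from limma-voom, and a gene is called at an adjusted p below 0.05 (Benjamini-Hochberg over the 19110 genes that passed the filter on low counts). All 10 genes passed that filter. Between 40020424 and 49894856 reads per mouse fell on genes (median 46618609), so the least abundant gene here, Lipe, was still read 245 to 1103 times per liver. Reads of every strain were mapped to the C57BL/6J genome, and the mean share of unmapped reads ran from 2.11% (A/J WD) to 13.3% (CAST/EiJ WD). That share moves with strain and, in some strains, with diet. In PWK/PhJ it was 2.22% to 4.23% on CD and 5.48% to 8.73% on WD. In DBA/2J it was 5.42% to 7.07% on CD and 4.01% to 5.67% on WD. Its part in the strain and diet differences below was not tested. In whole liver, fewer cells of a type and less RNA per cell cannot be told apart. The libraries had the profile of liver: albumin (Alb) lay between 37566 and 184302 CPM in all 93 mice, while the adipocyte genes Adipoq and Lep had medians of 0.117 and 0.0206 CPM. One library stood apart: replicate 2 of C57BL/6J CD had the highest Adipoq (4.84 CPM), Plin1 (5.41 CPM), Retn (2.59 CPM) and Fabp4 (44.6 CPM) of all mice, while the other 4 listed adipocyte markers (Lep, Cfd, Adrb3 and Car3) peaked in other mice, and it had the lowest Plin2, Plin5, G0s2, Pnpla2, Mgll and Dgat2 of its group.

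In the GRCm38 annotation the genes lie on 7 chromosomes. Plin3 (17:56277476-56292873, minus strand) and Plin5 (17:56111601-56117596, minus) are near one another on chromosome 17, and Pnpla2 (7:141455198-141460743, plus), Lipe (7:25379527-25398710, minus) and Dgat2 (7:99153658-99182719, minus) share chromosome 7. The other members are Plin2 (4:86648386-86670060, minus), Cideb (14:55754050-55758458, minus), G0s2 (1:193272161-193273217, minus), Abhd5 (9:122351608-122381524, plus) and Mgll (6:88724412-88828360, plus). Cideb is the member whose counts are least certain, since 1136 bases (76.3%) of its merged exons overlap Nop9 on the opposite strand, and whether counting used strand is not given in the sources used here. Lipe shares 15.6%, Abhd5 16.0% and Mgll 3.29% of their exon bases with antisense RNAs.

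Promoter sequences came from RefSeq (GRCm38.p6), in which 12 promoters matched 9 of the 10 genes. Those of Plin2, Plin5 and Pnpla2 are shown because Plin2 and Pnpla2 are the members that fell on WD in CAST/EiJ and Plin5 is the one that tracked Plin2 most closely between CD-fed mice. Each runs 5′ to 3′ on the gene's strand, from 250 bases before the start to 10 after it. Capitals mark the letters CACGTG (an E-box) or AGGTCA (a nuclear receptor element) on either strand.
Plin2, chr4:86670050-86670309, minus strand: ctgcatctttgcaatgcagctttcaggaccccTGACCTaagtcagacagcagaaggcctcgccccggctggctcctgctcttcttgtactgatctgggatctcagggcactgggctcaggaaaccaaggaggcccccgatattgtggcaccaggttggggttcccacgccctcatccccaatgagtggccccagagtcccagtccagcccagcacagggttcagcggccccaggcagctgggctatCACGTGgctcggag
Plin5, chr17:56117539-56117798, minus strand: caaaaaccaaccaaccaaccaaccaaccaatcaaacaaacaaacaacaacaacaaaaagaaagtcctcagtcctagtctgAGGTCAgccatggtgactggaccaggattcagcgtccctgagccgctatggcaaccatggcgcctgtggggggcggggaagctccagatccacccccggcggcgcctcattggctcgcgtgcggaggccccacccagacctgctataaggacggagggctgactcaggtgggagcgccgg
Pnpla2, chr7:141454938-141455197, plus strand: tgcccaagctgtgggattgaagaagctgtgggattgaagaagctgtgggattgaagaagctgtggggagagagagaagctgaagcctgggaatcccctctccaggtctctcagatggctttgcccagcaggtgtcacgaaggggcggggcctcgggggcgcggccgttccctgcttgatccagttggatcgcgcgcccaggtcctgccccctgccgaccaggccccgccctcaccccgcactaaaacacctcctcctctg
The Plin2 promoter held CACGTG from position -4, across the start site, and AGGTCA on the minus strand from position -218. The Plin5 promoter shown held AGGTCA from position -170. The Pnpla2 promoter held neither. Neither match in Plin2 or Plin5 overlapped another motif searched. Among the 12 promoters (250 bases before to 50 after the start), CACGTG occurred in 3, those of Plin2, Mgll and Lipe, against 7.15% of all 32851 promoters of that length. AGGTCA occurred in 4, those of Plin2, Abhd5 and both of Plin5, against 16.3% of all. GGGCGG, the GC box, was in 11 of the 12 against 35.7% of all, CCAAT in 3 against 37.4%, TATAAA in 1 against 13.6% and the forkhead letters GTAAACA in 2 against 3.65%. These matches describe letters, not bound sites.

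On a per-length scale (CPM per kb of merged exon), the same 3 genes led in every one of the 14 groups. Dgat2 had group means of 119 to 285 CPM per kb, Plin2 of 75.1 to 311 and G0s2 of 80.6 to 327. In the middle lay Mgll at 38.0 to 66.9 CPM per kb, Pnpla2 at 21.4 to 96.6, Cideb at 23.9 to 37.1, Plin5 at 11.4 to 30.5 and Plin3 at 9.35 to 16.2, in an order that changed between groups. Abhd5 (3.48 to 6.35) and Lipe (1.18 to 3.49) were the lowest members in all groups. The inhibitor transcript G0s2 therefore exceeded that of its target lipase Pnpla2 in every group mean, with a mean per-length ratio between 2.62 ± 1.50 (CAST/EiJ WD, n = 8) and 8.14 ± 4.01 (C57BL/6J CD, n = 8), whereas Abhd5 lay below Pnpla2, with a mean ratio between 0.0430 ± 0.0184 (CAST/EiJ CD, n = 7) and 0.254 ± 0.0552 (DBA/2J WD, n = 7).

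Genetic background took a larger total share of the variation in these transcripts than diet did. Strain has more levels than diet, and the shares were not scaled for that. Strain took between 20.6% (G0s2) and 71.5% (Lipe) of the variance of log2 expression, diet after strain between 0.00244% (Mgll) and 10.8% (Plin3), and their interaction between 2.62% (Abhd5) and 11.3% (Plin2). The members' medians of 52.6% for strain and 2.79% for diet were close to those of all genes (54.8% and 2.30%). Most of the variance of Mgll (69.2%), G0s2 (67.9%) and Plin5 (59.5%) lay between mice of the same strain and diet, against a median of 31.3% over all genes. A strain effect on CD was called for 10 of the 10 genes (limma-voom F test), as it was for 93.7% of all genes, and on WD for 9 of the 10 against 93.9%. The exception on WD was G0s2 (adjusted p = 0.246, limma-voom), which DESeq2 did call.

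**Figure D1:**
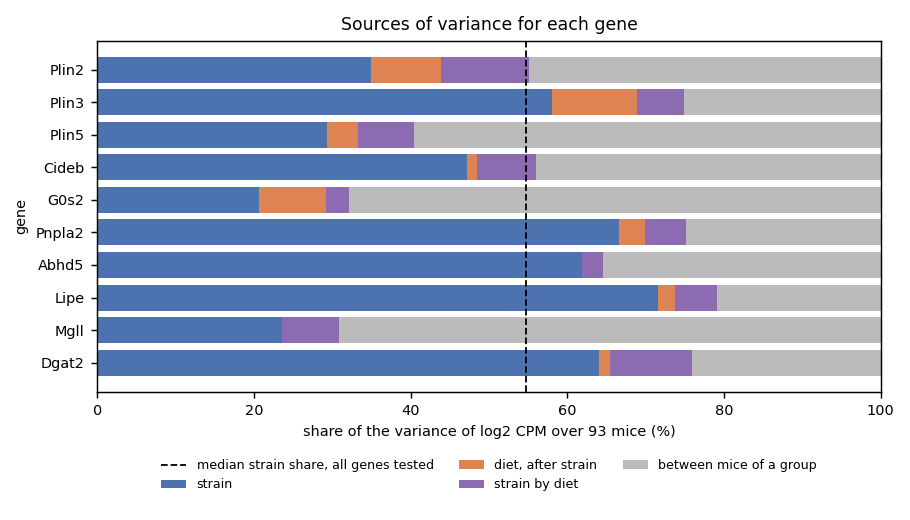
Percent of the variance of log2 expression of each gene (bars stacked to the whole) taken by strain, by diet after strain, by their interaction and by mice within a group, over 93 mice. The dashed line marks the median strain share of all genes, 54.8%, and the strain share is highest for Lipe (71.5%) and lowest for G0s2 (20.6%).

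Lipe and Pnpla2, the lipases with the largest strain shares, were both highest in CAST/EiJ. On CD, Pnpla2 was 292 ± 141 CPM (n = 7) in CAST/EiJ and 123 ± 26.8 (n = 6) in WSB/EiJ, the next strain, and the remaining strains followed down to 79.0 ± 16.3 (n = 6) in DBA/2J. The step from CAST/EiJ to WSB/EiJ was a log2 difference of 1.15 (SE 0.17, adjusted p = 6.88e-09, limma-voom), and no other neighbouring pair in the CD order was called. On WD the same step was 0.44 (SE 0.16, adjusted p = 0.0148). Lipe was likewise highest in CAST/EiJ, at 20.5 ± 3.93 CPM (n = 7) on CD against 12.6 ± 3.59 (n = 6) in DBA/2J, the next strain (log2 difference 0.72, SE 0.14, adjusted p = 4.99e-06, limma-voom). It was lowest in PWK/PhJ, at 6.92 ± 1.47 (n = 6) on CD and 7.13 ± 1.07 (n = 7) on WD. Of the 21 strain pairs, 16 differed in Lipe on CD and 15 on WD, more than for any other member, where the share of all genes called per pair was 23.4% to 65.9% on CD and 26.9% to 67.3% on WD.

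Dgat2 was lowest in C57BL/6J on both diets (367 ± 91.3 CPM on CD and 492 ± 84.6 on WD, n = 8 each) and highest in A/J (724 ± 64.5, n = 5, and 879 ± 93, n = 6). On CD the called step was at the bottom, between DBA/2J at 537 ± 38.6 (n = 6) and C57BL/6J (log2 difference 0.59, SE 0.10, adjusted p = 7.28e-07, limma-voom). On WD it was at the top, between A/J and 129S1/SvImJ at 682 ± 111 (n = 6; 0.37, SE 0.11, adjusted p = 0.00551). Among the coat genes, Plin3 was lowest in CAST/EiJ on both diets, at 35.4 ± 5.64 (n = 7) and 36.3 ± 3.99 CPM (n = 8), and the step up to PWK/PhJ was called on CD (0.23, SE 0.09, adjusted p = 0.0263) and on WD (0.51, SE 0.09, adjusted p = 2.88e-07). Plin2 was highest in C57BL/6J on both diets, at 1091 ± 371 and 769 ± 121 CPM (n = 8 each), 3.10 times the lowest strain mean on CD (129S1/SvImJ, 352 ± 109, n = 7) and 2.91 times the lowest on WD (CAST/EiJ, 264 ± 57.6, n = 8). No neighbours in the Plin2 order differed beyond their spread on either diet. The same held for G0s2 and Mgll, for which 2 and 3 of the 21 pairs were called on WD.

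Plin5, the perilipin of oxidative tissues, ran on CD from 34.5 ± 4.33 CPM in 129S1/SvImJ (n = 7) to 59.7 ± 31.5 in CAST/EiJ (n = 7), with no called step. On WD it was highest in WSB/EiJ (63.7 ± 22.4, n = 6) and the step to C57BL/6J (40.1 ± 5.92, n = 8) was called (log2 difference 0.60, SE 0.24, adjusted p = 0.0271, limma-voom). Cideb ran from 35.5 ± 3.35 CPM (CAST/EiJ, n = 7) to 51.8 ± 2.51 (129S1/SvImJ, n = 7) on CD. On WD the one called step in Cideb lay between 129S1/SvImJ (52.7 ± 2.20, n = 6) and C57BL/6J (45.1 ± 6.85, n = 8; 0.24, SE 0.09, adjusted p = 0.0287). Abhd5 was highest in PWK/PhJ on both diets (37.8 ± 7.04, n = 6, and 34.1 ± 5.94, n = 7). Its WD levels fell into a higher set of PWK/PhJ, C57BL/6J and DBA/2J and a lower set of the other 4 strains, and the step between DBA/2J (32.0 ± 5.55, n = 7) and 129S1/SvImJ (24.5 ± 3.03, n = 6) was called (0.38, SE 0.14, adjusted p = 0.0242).

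The WD changed few of these transcripts. Of the 70 combinations of gene and strain, 7 were called, 5 higher and 2 lower on WD. In C57BL/6J 1 of the 10 genes was called against 26.2% of all genes, in A/J 1 against 9.03%, in 129S1/SvImJ 2 against 28%, in CAST/EiJ 2 against 19.5% and in PWK/PhJ 1 against 29.6%. In DBA/2J limma-voom called 0 of the 10 (18% of all genes), 2 had an unadjusted p below 0.05, and edgeR and DESeq2 each called 1, Plin2. In WSB/EiJ limma-voom, edgeR and DESeq2 called 0 (8.94% of all genes with limma-voom), and 1 had an unadjusted p below 0.05. The members' share was thus near or below the background in every strain. Their median log2 fold change lay between -0.23 (CAST/EiJ) and 0.14 (C57BL/6J), that of all genes between -0.01 and 0.02. The 7 calls were Plin3 in A/J, 129S1/SvImJ and PWK/PhJ, Dgat2 in C57BL/6J and Lipe in 129S1/SvImJ, which rose, and Plin2 and Pnpla2 in CAST/EiJ, which fell.

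**Figure D2:**
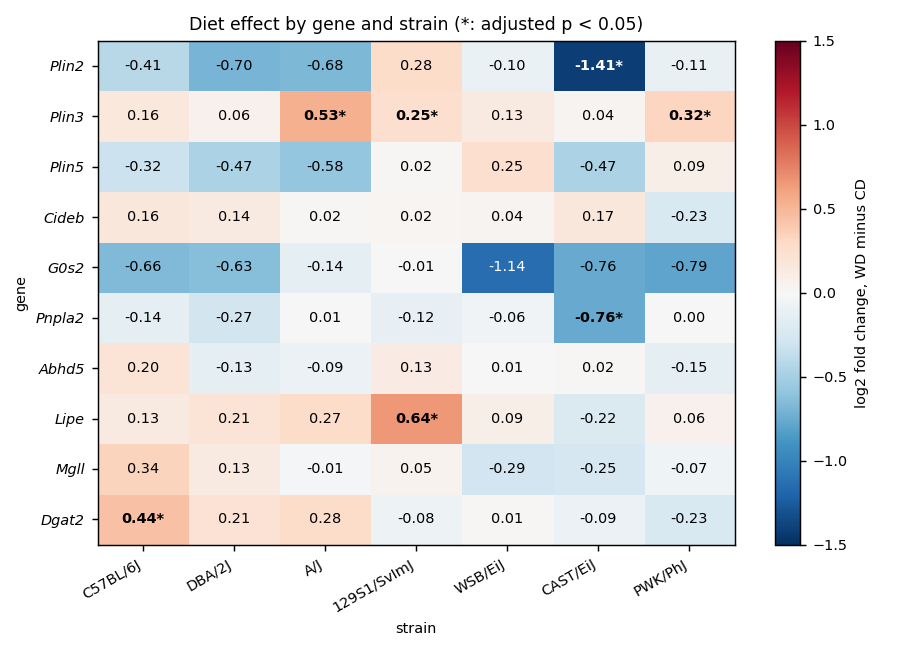
Log2 fold change, WD over CD, of the 10 genes (rows) in the 7 strains (columns), from limma-voom, with the value in each cell and an asterisk where the adjusted p was below 0.05. The largest decrease is Plin2 in CAST/EiJ (-1.41) and the Plin3 row holds only positive values, from 0.04 to 0.53.

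Plin2, the major hepatocyte coat gene, was lower on WD in CAST/EiJ. The 7 CAST/EiJ CD mice had 489, 210, 1275, 335, 864, 1336 and 1416 CPM and the 8 WD mice 360, 266, 213, 280, 182, 235, 253 and 322 CPM. On CD, 5 mice lay above every WD mouse and the other 2 within the WD range, so the CD group spread over 6.73-fold and the WD group over 1.98-fold. The log2 fold change was -1.41 (SE 0.28, adjusted p = 7.52e-05, limma-voom), a mean 2.66-fold decrease. It stayed called without any single CAST/EiJ mouse (-1.70 to -1.24), and the cohorts gave -0.84, -1.20 and -1.69, the first of them with 1 CD mouse. In DBA/2J Plin2 also spread widely on CD, from 259 to 1688 CPM (median 681), against 379 to 575 (median 417) on WD. Its fold change of -0.70 (SE 0.30) was not called (adjusted p = 0.104) and lay in 1 cohort alone, -1.45 in cohort 4 and 0.02 in cohort 5. The log2 fold change was -0.68 in A/J and -0.41 in C57BL/6J, and between -0.11 and 0.28 in PWK/PhJ, WSB/EiJ and 129S1/SvImJ, none of them called. Without C57BL/6J CD replicate 2, the library that stood apart, the C57BL/6J value was -0.63 (adjusted p = 0.0744, limma-voom).

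Plin5 encodes the perilipin that links droplets to mitochondria. In CAST/EiJ its CD mice spread from 21.1 to 98.2 CPM (median 62.8) and its WD mice from 27.5 to 47.4 (median 37.0). The groups overlapped, and the log2 fold change of -0.47 (SE 0.23, adjusted p = 0.147) was not called by limma-voom, while edgeR (-0.67, adjusted p = 0.0226) and DESeq2 (-0.68, adjusted p = 0.0145) called it. The other strains lay between -0.58 (A/J) and 0.25 (WSB/EiJ), without a call, and C57BL/6J went from -0.32 to -0.47 (adjusted p = 0.0975) without CD replicate 2.

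Plin3, the perilipin expressed in most cell types, was the member that rose in the most strains. In A/J the 5 CD mice had 40.2, 41.2, 48.8, 41.0 and 36.6 CPM and the 6 WD mice 60.1, 68.9, 50.6, 58.5, 62.2 and 60.3 CPM. The groups did not overlap, as was the case with WD above CD for 4.14% of all genes in this strain. The log2 fold change was 0.53 (SE 0.10, adjusted p = 0.000125, limma-voom), with 0.54 and 0.55 in the 2 cohorts. In PWK/PhJ the CD mice lay between 36.9 and 48.9 CPM (median 41.1) and the WD mice between 44.6 and 60.0 (median 49.6), 6 of 7 above every CD mouse, for a fold change of 0.32 (SE 0.09, adjusted p = 0.00460). The rise was smaller in cohort 1 (0.15) than in cohort 2 (0.46). In 129S1/SvImJ Plin3 was between 45.4 and 52.5 CPM on CD (median 48.9) and between 52.1 and 65.2 on WD (median 57.4), with 5 of 6 WD mice above every CD mouse. Its fold change of 0.25 (SE 0.09, adjusted p = 0.0317) lost the call without CD replicate 3 (adjusted p = 0.0587), CD replicate 7 (0.0616), WD replicate 4 (0.0947) or WD replicate 5 (0.0750). The 4 other strains had log2 fold changes of 0.04 to 0.16, so that all 7 estimates were above 0. Macrophages also express Plin3: the summed CPM of 10 macrophage and Kupffer cell markers went from 359 ± 51.5 to 461 ± 155 in A/J, from 261 ± 43.8 to 485 ± 68.3 in 129S1/SvImJ and from 181 ± 82.2 to 355 ± 50.1 in PWK/PhJ (n as above), and their part in the result was not tested.

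Cideb was called in no strain by limma-voom as fitted. In C57BL/6J (0.16) it was called with cohort as a covariate (0.22, adjusted p = 0.0479), without CD replicate 7 (0.23, adjusted p = 0.0352) and without WD replicate 3 (0.25, adjusted p = 0.0119), but without CD replicate 2 it was 0.10 (adjusted p = 0.383). Its estimates were between 0.02 and 0.17 in 6 strains and -0.23 (SE 0.09, adjusted p = 0.0526) in PWK/PhJ, where 3 of 7 WD mice lay below every CD mouse. In PWK/PhJ edgeR (adjusted p = 0.0419) and DESeq2 (0.0482) called it, and the cohorts gave -0.23 and -0.22. Nop9, which overlaps it on the other strand, fell in PWK/PhJ by 0.15 on the log2 scale (SE 0.05, adjusted p = 0.0203, limma-voom) and its part in the Cideb counts was not tested. Nop9 also fell in C57BL/6J, A/J and 129S1/SvImJ, where Cideb was 0.16, 0.02 and 0.02.

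**Figure D3:**
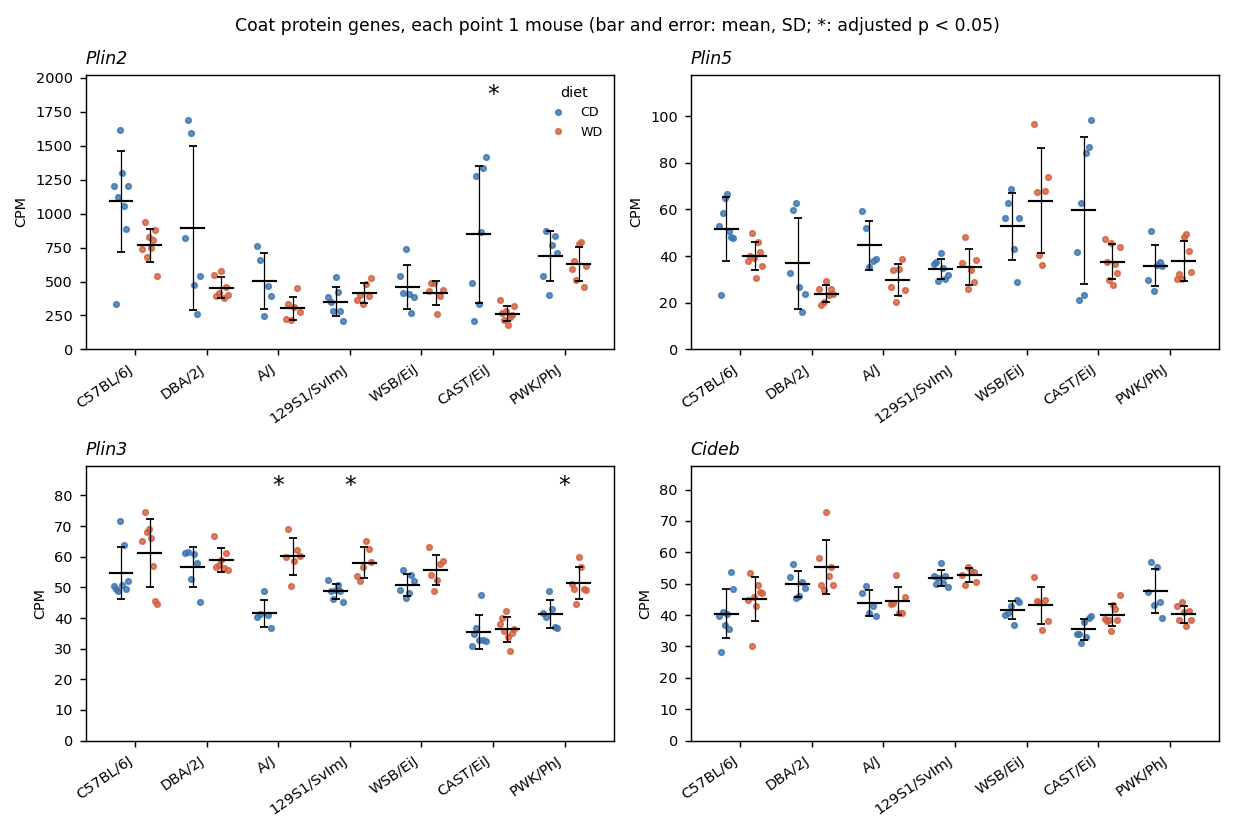
CPM of Plin2, Plin5, Plin3 and Cideb in each mouse (points), by strain and diet, with the mean and SD of each group as bars and asterisks where the diet effect had an adjusted p below 0.05 (limma-voom). CAST/EiJ CD mice spread from 210 to 1416 CPM for Plin2 while the WD mice sit at 182 to 360, and A/J WD mice sit above all A/J CD mice for Plin3.

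Pnpla2, the lipase of the first step, fell in CAST/EiJ, the strain in which it was highest. The CD mice had 210, 178, 254, 141, 551, 370 and 338 CPM and the WD mice 152, 137, 148, 150, 213, 158, 139 and 170 CPM. On CD, 4 mice lay above every WD mouse and 3 within the WD range. The log2 fold change was -0.76 (SE 0.16, adjusted p = 0.000152, limma-voom), a mean 1.69-fold decrease, and lay between -0.91 and -0.58 when any one CAST/EiJ mouse was left out, called each time. The cohorts gave -0.53, -0.25 and -1.02. In the other strains the estimates ran from -0.27 (DBA/2J) to 0.01 (A/J), with no call, and that of C57BL/6J went from -0.14 to -0.26 (adjusted p = 0.172) without CD replicate 2.

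G0s2, the inhibitor of that lipase, had the widest spread between mice of a group of all 10 genes, up to 13.8-fold in WSB/EiJ WD (17.7 to 243 CPM, median 124) and 12.3-fold in C57BL/6J CD (32.4 to 400 CPM, median 309). Its estimates were between -1.14 (WSB/EiJ, SE 0.51) and -0.14 (A/J, SE 0.53) in 6 strains and -0.01 (SE 0.49) in 129S1/SvImJ, where edgeR (0.18), DESeq2 (0.19) and upper-quartile scaling (0.05) turned the sign, and they were below 0 in 11 of the 15 combinations of strain and cohort. None was called by limma-voom: the lowest adjusted p was 0.166, in WSB/EiJ. In C57BL/6J the estimate of -0.66 became -1.06 (adjusted p = 0.0574) without CD replicate 2 and -1.14 (adjusted p = 0.0342) with quality weights. In CAST/EiJ edgeR (-1.14, adjusted p = 0.0483) and DESeq2 (-1.16, adjusted p = 0.0238) called a decrease, from 260 ± 206 (n = 7) to 118 ± 69.8 CPM (n = 8), where limma-voom gave -0.76 (SE 0.46, adjusted p = 0.262). The 95% intervals reached down to -2.14 (WSB/EiJ) and up to 0.94 (129S1/SvImJ). Abhd5, the coactivator, had estimates between -0.15 and 0.20 with SEs of 0.12 to 0.15 and no call in any strain.

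Lipe, hormone-sensitive lipase, rose in 129S1/SvImJ. Its 7 CD mice had 10.0, 9.13, 8.64, 9.45, 9.91, 7.97 and 7.80 CPM and its 6 WD mice 12.6, 13.7, 12.1, 16.5, 14.2 and 15.3 CPM. All WD mice lay above all CD mice, as for 9.23% of all genes in this strain. The log2 fold change was 0.64 (SE 0.15, adjusted p = 0.000399, limma-voom), with 0.47 and 0.80 in its cohorts. In this strain 8 of the 10 macrophage markers also rose, where 14.5% of all genes were called higher, and their part in the result was not tested. Of the 6 adipocyte markers that passed the filter, limma-voom called 1, which rose, and edgeR and DESeq2 each called 2. The median log2 fold change of these markers was 0.59, and their part in the result was not tested. Elsewhere the Lipe estimates ran from -0.22 (CAST/EiJ) to 0.27 (A/J) without a call.

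Mgll, the monoglyceride lipase, was called in no strain, with estimates of -0.29 (WSB/EiJ) to 0.34 (C57BL/6J, SE 0.17, adjusted p = 0.145). In C57BL/6J the cohorts differed: 1.05 in cohort 1, which held the library with 59.9 CPM that stood apart, and -0.11 in cohort 2. With cohort as a covariate the C57BL/6J estimate was 0.48 and called (adjusted p = 0.0280, limma-voom), and without that library it was 0.09 (adjusted p = 0.691).

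Dgat2 rose in C57BL/6J, the strain in which it was lowest. The CD mice had 377, 231, 423, 298, 394, 280, 509 and 426 CPM and the WD mice 536, 566, 305, 475, 547, 473, 477 and 555 CPM. The groups overlapped, with 4 of 8 WD mice above every CD mouse and 3 of 8 CD mice below every WD mouse. The log2 fold change was 0.44 (SE 0.09, adjusted p = 0.000107, limma-voom), and 0.51 and 0.43 in the 2 cohorts. Without CD replicate 2, the library that stood apart, it was 0.36 (adjusted p = 0.000746), and without both that one and WD replicate 3, whose 305 CPM was the lowest of its group, 0.46 (adjusted p = 3.71e-06). Fitted on the C57BL/6J mice alone it had the same size, 0.44, but was not called (adjusted p = 0.0701). In A/J 5 of 6 WD mice exceeded every CD mouse (0.28, SE 0.11, adjusted p = 0.114), and in PWK/PhJ 6 of 7 WD mice lay below every CD mouse (-0.23, SE 0.10, adjusted p = 0.0840), neither a call.

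**Figure D4:**
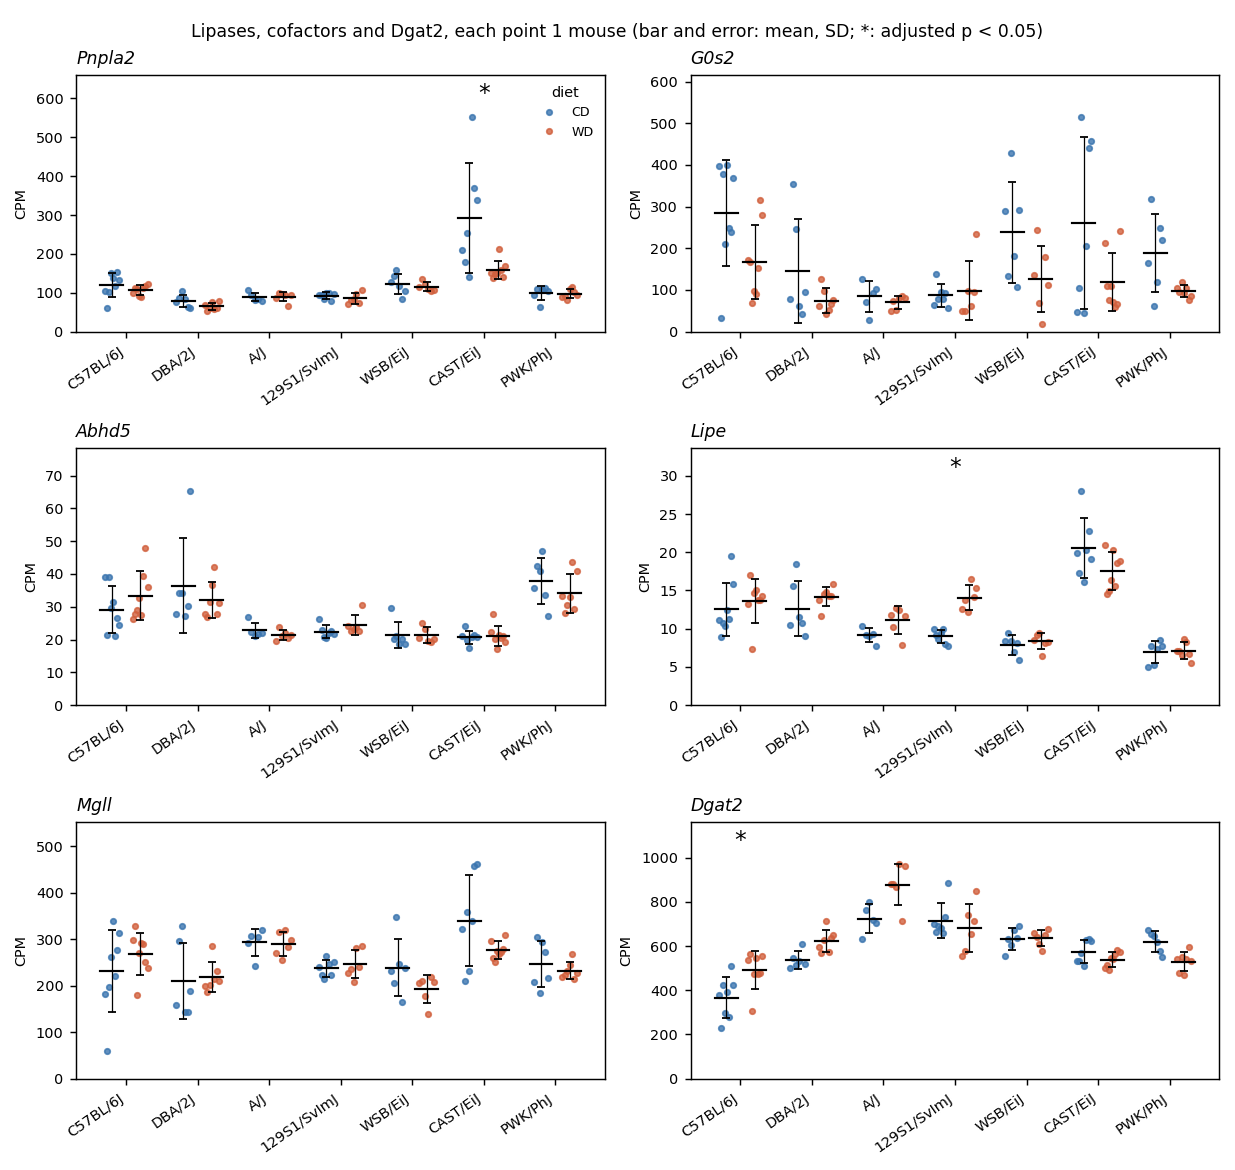
CPM of Pnpla2, G0s2, Abhd5, Lipe, Mgll and Dgat2 in each mouse (points), by strain and diet, with group mean and SD as bars and asterisks where the diet effect had an adjusted p below 0.05 (limma-voom). Lipe is higher in all 129S1/SvImJ WD mice than in any CD mouse of that strain, and Pnpla2 is highest in CAST/EiJ CD mice.

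Whether the response to the WD differed between strains was tested with an interaction F test over the 7 strains. It was called for 5 of the 10 genes, against 37.5% of all genes: Dgat2 (adjusted p = 0.000465), Lipe (0.0123), Plin2 (0.0161), Plin3 (0.0221) and Pnpla2 (0.0378, limma-voom). With genes of any count kept, the calls of Plin2 (adjusted p = 0.0675) and Pnpla2 (0.0884) were lost, and without A/J CD replicate 5 that of Plin3 (0.0529). Other fits added a call, for Cideb with cohort as a covariate (0.0404) or quality weights (0.0171) and for Plin5 with DESeq2 (0.0378). The response of each strain was also set against the mean response of the other 6. In CAST/EiJ 3 genes were called (14.5% of all genes): Plin2 (difference of log2 fold changes -1.13, SE 0.30, adjusted p = 0.00617), Pnpla2 (-0.66, SE 0.17, adjusted p = 0.00373) and Lipe (-0.45, SE 0.14, adjusted p = 0.0179, limma-voom). In PWK/PhJ 2 were called (16.3%): Cideb (-0.32, SE 0.10, adjusted p = 0.0180) and Dgat2 (-0.36, SE 0.11, adjusted p = 0.0176). Lipe was called in 129S1/SvImJ (0.55, SE 0.16, adjusted p = 0.0216, against 6.28%) and Dgat2 in C57BL/6J (0.42, SE 0.10, adjusted p = 0.00621, against 4.69%). In PWK/PhJ and C57BL/6J Dgat2 therefore departed from the other strains in opposite directions.

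Between mice of one group, several members moved with Plin2. Correlations were taken over deviations of log2 CPM from the group means and describe these mice. All points share library composition, and each mouse gives both values. On CD (45 mice) Pearson's r with Plin2 was 0.93 for Plin5 (Spearman's rho 0.92), 0.84 for G0s2 (0.80), 0.79 for Mgll (0.76), 0.73 for Pnpla2 (0.76) and 0.56 for Lipe (0.60), whereas 4.73% of all other genes had r above 0.5. It was 0.32 for Cideb, 0.16 for Abhd5, 0.09 for Dgat2 and 0.05 for Plin3. On CD, Plin5 and the lipolysis genes G0s2, Mgll, Pnpla2 and Lipe thus followed Plin2 more closely than did the synthesis gene, Plin3 and the coactivator. Without the 2 mice farthest from the median Plin2, r was 0.90 for Plin5, 0.83 for G0s2, 0.75 for Mgll, 0.66 for Pnpla2 and 0.51 for Lipe. Over the 38 mice outside CAST/EiJ it was 0.92, 0.83, 0.77, 0.75 and 0.54, and over deviations from cohort means 0.90, 0.87, 0.82, 0.67 and 0.46. Within each of the 6 CD groups of at least 6 mice, r of Plin5 lay between 0.81 and 0.99. For the others it was less even: 0.39 to 0.95 for G0s2, 0.42 to 0.95 for Mgll, 0.48 to 0.95 for Pnpla2 and 0.24 to 0.88 for Lipe.

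On WD (48 mice) the values were lower: r with Plin2 was 0.61 for Mgll (rho 0.64), 0.60 for Plin5 (0.60), 0.45 for Plin3 (0.53) and 0.42 for G0s2 (0.29), and 0.08 for Pnpla2 (0.24). Of all other genes, 0.748% had r above 0.5 on WD. The difference between the diets was not tested. Plin2 itself spread more on CD in all 7 strains, its highest mouse over its lowest ranging from 2.16-fold (PWK/PhJ) to 6.73-fold (CAST/EiJ) on CD and from 1.52-fold (DBA/2J) to 2.09-fold (A/J) on WD. Of the 10 members, 8 had the larger SD on CD in C57BL/6J and DBA/2J and 9 in CAST/EiJ and PWK/PhJ, where 54.9% to 65.5% of all genes did. The count was 5 in A/J (45.8% of all genes), 6 in WSB/EiJ (47.8%) and 2 in 129S1/SvImJ (47.2%).

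Plin2 and Plin5 are textbook targets of PPAR alpha, the nuclear receptor that drives fatty acid oxidation in the fasted liver. The same CD-fed CAST/EiJ mice that were high in Plin2 were high in other genes of that program. Pdk4, which spares glucose by inhibiting pyruvate dehydrogenase, was 3.60, 3.87, 357, 8.92, 882, 504 and 534 CPM in CD replicates 1 to 7, and 4.19 to 13 CPM in the 8 WD mice. Cyp4a10, a fatty acid hydroxylase, was 31.9, 45.5, 662, 38.1, 749, 1048 and 1033 CPM in the CD mice and 7.85 to 53.8 on WD. Replicates 3, 5, 6 and 7 were the high ones for Plin2, Pdk4 and Cyp4a10 alike, and they came from 2 of the 3 cohorts. Over all 45 CD mice, r with Plin2 was above 0.5 for all 15 listed PPAR alpha target genes (0.55 to 0.91, median 0.78), and over the 48 WD mice for 6 of the 15 (0.30 to 0.66, median 0.48). In the diet comparison 8 of the 15 fell in CAST/EiJ and none rose, where 9.73% of all genes were called lower. Their median log2 fold change was -0.72 against 0.02 for all genes. In CAST/EiJ edgeR and DESeq2 each called 12. In the other strains limma-voom called between 0 and 3, edgeR between 2 and 6 and DESeq2 between 2 and 7, the most in DBA/2J with both (2 with limma-voom). The 0 was WSB/EiJ with limma-voom, where 3 had an unadjusted p below 0.05 and edgeR and DESeq2 each called 3. The part of PPAR alpha or of feeding state in the results of the 10 genes was not tested.

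**Figure D5:**
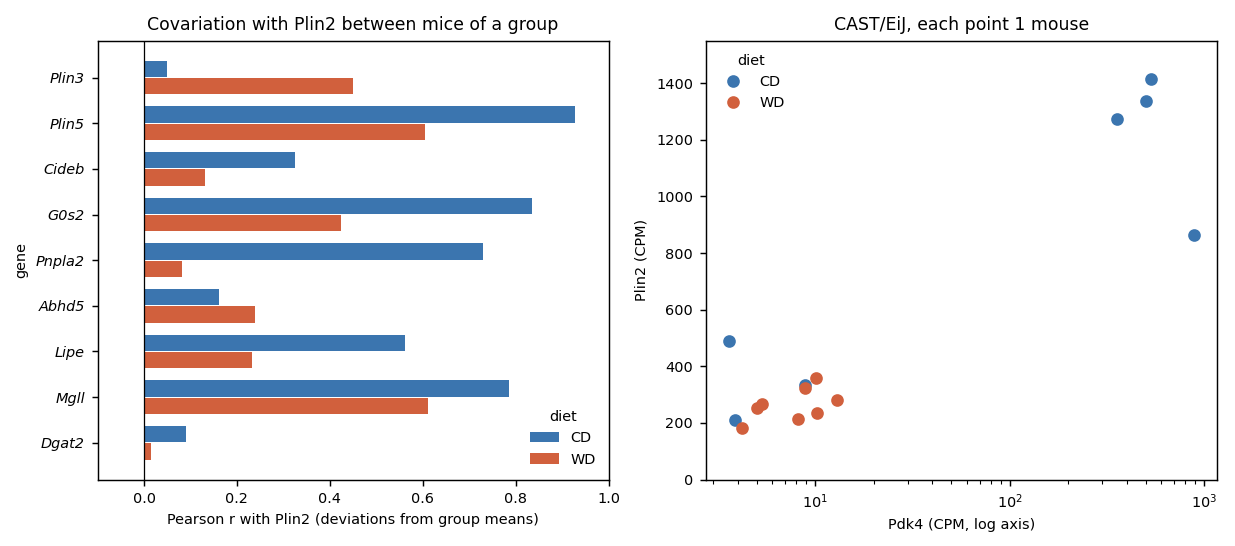
Left, Pearson's r with Plin2 for each of the 9 other genes over deviations from group means, on CD (45 mice) and WD (48 mice). Right, Plin2 against Pdk4 CPM in each CAST/EiJ mouse, with a log axis for Pdk4 only. There 4 CD mice sit at 864 to 1416 CPM of Plin2 and 357 to 882 CPM of Pdk4. They lie apart from the other 3 CD mice and the 8 WD mice.

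Other genes of droplet biology, listed by function, were set beside the 10 members. Of 14 further lipid droplet proteins, 8 were called in C57BL/6J (7 higher), 4 in DBA/2J, 2 in A/J, 3 in 129S1/SvImJ and 2 in WSB/EiJ (all higher), 5 in CAST/EiJ (4 lower) and 5 in PWK/PhJ (3 higher). Among all genes the called share in these strains was, in that order, 26.2%, 18%, 9.03%, 28%, 8.94%, 19.5% and 29.6%. The median log2 fold change of this list ran from -0.60 in CAST/EiJ to 0.24 in C57BL/6J. Cidec, which fuses droplets, rose in C57BL/6J from 20.2 ± 20.4 to 143 ± 43.5 CPM (log2 fold change 3.17, SE 0.39, adjusted p = 8.34e-10, limma-voom). Fitm1, which takes part in droplet formation, rose in DBA/2J from 1.43 ± 0.79 to 17.4 ± 2.33 CPM (3.79, SE 0.50, adjusted p = 1.17e-08). Cidea, the third member of the Cide family, was 0 to 0.0438 CPM in the DBA/2J CD mice and 0.800 to 11.7 on WD (adjusted p = 0.000128). Plin4, a perilipin of adipose tissue and muscle, rose in A/J from 3.67 ± 0.82 to 25.6 ± 17.4 CPM (2.48, SE 0.58, adjusted p = 0.00240).

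Among 15 glycerolipid synthesis genes other than Dgat2, 7 were called in C57BL/6J (all higher), 3 in DBA/2J, 2 in A/J, 3 in 129S1/SvImJ (1 lower), 3 in WSB/EiJ, 4 in CAST/EiJ (all lower) and 7 in PWK/PhJ (5 higher). The shares of all genes called, listed above by strain, ran from 8.94% (WSB/EiJ) to 29.6% (PWK/PhJ). Mogat1, a monoglyceride acyltransferase that supplies diglyceride to Dgat2, was 0 to 0.153 CPM on CD and 2.27 to 6.43 on WD in DBA/2J (adjusted p = 6.47e-08, limma-voom). Its paralog Mogat2 rose in C57BL/6J, at low levels (0.162 ± 0.103 to 0.418 ± 0.147 CPM, adjusted p = 0.000316). Lpin1, a phosphatidate phosphatase, fell in CAST/EiJ from 578 ± 584 to 129 ± 99.5 CPM (-1.66, SE 0.38, adjusted p = 0.000658), with the wide CD spread also seen for Plin2 there. Gpat3, an acyltransferase of the first step, rose in WSB/EiJ (1.35, SE 0.39, adjusted p = 0.0165).

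Of 13 other neutral lipid hydrolases, between 2 (A/J, WSB/EiJ) and 7 (PWK/PhJ) were called per strain, and the calls were lower for 3 of 3 in DBA/2J, 4 of 5 in CAST/EiJ and 6 of 7 in PWK/PhJ. Among all genes the called share was 9.03% in A/J, 8.94% in WSB/EiJ, 18% in DBA/2J, 19.5% in CAST/EiJ and 29.6% in PWK/PhJ. Ces1d, a triglyceride hydrolase of the hepatocyte, fell in PWK/PhJ from 354 ± 52.0 to 222 ± 42.7 CPM (-0.68, SE 0.22, adjusted p = 0.0118, limma-voom). In 129S1/SvImJ, where Lipe rose, Ddhd2, an intracellular triglyceride lipase, fell from 40.0 ± 5.18 to 20.6 ± 2.77 CPM (-0.96, SE 0.16, adjusted p = 1.44e-06) and endothelial lipase (Lipg) from 35.1 ± 9.63 to 9.72 ± 3.75 (-1.89, SE 0.37, adjusted p = 4.16e-05). Lipoprotein lipase (Lpl) rose in PWK/PhJ from 10.5 ± 1.89 to 65.8 ± 13.8 CPM (2.64, SE 0.37, adjusted p = 2.21e-08). It is also made by macrophages, of whose 10 markers 7 rose in that strain, where 15.1% of all genes were called higher. Their part in the result was not tested.

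Of 11 genes of fatty acid uptake and activation, 3 (A/J) to 7 (C57BL/6J) were called per strain, against 9.03% and 26.2% of all genes in these 2 strains. The fatty acid translocase Cd36 rose in A/J from 25.9 ± 4.35 to 189 ± 63.6 CPM (2.81, SE 0.25, adjusted p = 6.90e-15, limma-voom), while the binding protein Fabp5 fell in PWK/PhJ from 89.6 ± 45.2 to 14.8 ± 3.43 (-2.48, SE 0.34, adjusted p = 9.15e-09). In C57BL/6J Fabp2 (1.05, SE 0.14, adjusted p = 6.70e-09) and Fabp4 (1.34, SE 0.20, adjusted p = 1.06e-07) rose. Vnn1, a pantetheinase among the PPAR alpha targets, rose in 129S1/SvImJ from 11.7 ± 3.87 to 43.1 ± 16.6 CPM (1.90, SE 0.40, adjusted p = 0.000151), and Fgf21, a hepatic hormone in the same list, fell in CAST/EiJ from 13 ± 12.2 to 1.58 ± 0.90 (-2.16, SE 0.69, adjusted p = 0.0178).

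The pattern of each member over the 14 group means was set against every other tested gene. Pnpla2 was most like Adpgk (r = 0.96), Cep350 (0.94) and Morc2a (0.94), Plin2 most like Ywhaz (0.89), Jund (0.89) and Rhou (0.85), and Plin5 most like Slc22a5 (0.89), the carnitine transporter. Cideb was most like Psmd3 (0.93), Abhd5 like Gm37729 (0.94), Lipe like Zfp972 (0.91), Plin3 like Gm5602 (0.91), Dgat2 like Poldip2 (0.91), G0s2 like Ggps1 (0.87) and Mgll like Gm19196 (0.86). Of these nearest genes none was another member.

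Markers of other liver cells moved with diet in some strains. Beside their counts stand the shares of all genes called, listed above by strain, from 8.94% (WSB/EiJ) to 29.6% (PWK/PhJ). Of 10 macrophage and Kupffer cell markers, 8 rose in 129S1/SvImJ, 7 in PWK/PhJ, 6 in C57BL/6J and 2 each in WSB/EiJ and CAST/EiJ. In DBA/2J limma-voom, edgeR and DESeq2 called 0, with 0 at an unadjusted p below 0.05, and in A/J limma-voom called 0, with 3 at an unadjusted p below 0.05 and 3 called by edgeR and by DESeq2. Of 10 hepatocyte markers, between 2 (DBA/2J, CAST/EiJ) and 6 (129S1/SvImJ) fell. Of 10 stellate cell and fibroblast markers, 6 rose in PWK/PhJ, 4 in C57BL/6J, 3 in 129S1/SvImJ and 2 in A/J. Of 6 cholangiocyte markers, 5 rose in PWK/PhJ and at most 1 was called in any other strain. Of 9 T, B and NK cell markers, 5 rose in 129S1/SvImJ and 1 in C57BL/6J. Of 8 endothelial markers, 1 to 5 were called per strain, in both directions, and of the 6 adipocyte markers tested, 3 rose in C57BL/6J and at most 1 in any other strain. Where limma-voom called 0 of the stellate, cholangiocyte, lymphocyte or adipocyte markers in a strain, 0 to 3 had an unadjusted p below 0.05, edgeR called 0 to 3 and DESeq2 0 to 3. In CAST/EiJ, where Plin2 and Pnpla2 fell, the median log2 fold change of the hepatocyte markers was -0.23, and their summed level, most of it Alb, went from 130500 ± 7753 (n = 7) to 87191 ± 8308 CPM (n = 8). The mean summed level was lower on WD in every other strain too, where the median ran from -0.47 (PWK/PhJ) to -0.15 (DBA/2J). The part of these cell types in the results of the 10 genes was not tested.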

How the data were processed

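Liver RNA-seq libraries of 93 mice were prepared by the authors with a SMARTER mRNA-Seq kit and sequenced on a BGISEQ-500. Per the labels and the submitters' processing notes, reads of all strains were aligned to the mouse genome (GRCm38, mm10) with STAR 2.7.1a, and the deposited values are raw counts of reads per gene, which the authors had not normalized. The annotation release and the strand setting of the counting are not given in the sources used here.

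The 4 summary lines of each sample (unmapped, multimapping, no feature, ambiguous) were kept out of library sizes and tests; unmapped reads took 1.66% to 14.8% of reads and multimapping reads 8.03% to 12.2%. Groups came from the labels. Counts were filtered with edgeR 4.0.16 (filterByExpr, minimum count 10; 19110 of 53465 genes), scaled by TMM and fitted with limma 3.58.1 (voom) as 14 group means in R 4.3.3, with Benjamini-Hochberg adjustment within each contrast at 0.05. The code was tested on simulated data. CPM were computed from TMM library sizes, and variance shares and correlations from log2 CPM with a prior count of 2. Gene positions and exon lengths are GENCODE M21 (GRCm38).

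The 10 genes, the 5 gene lists and the 7 marker lists were chosen with earlier results of these data known. Beyond the 10 members, the 4 genes of each list with the largest called change in any strain were named, and for each member up to 3 genes with the highest correlation over group means. Each mouse is 1 liver, and the replicate numbers only name mice. Alternatives were edgeR's quasi-likelihood test, DESeq2 1.42.0, upper-quartile scaling, 2 other filters, cohort or RIN as a covariate, sample quality weights, a fit per strain and leaving out mice. Every member had at least 245 reads in every mouse. Protein sequences were not analysed here.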

Additional observations from a re-analysis of the deposited data

Results flagged for a closer look

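In 13 of the 140 groups checked for single genes, the highest or lowest mouse stood apart from the others by Dixon's 95% criterion, which chance meets in about 1 in 20 groups.

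In C57BL/6J, Plin5 was 23.3 CPM in CD replicate 2, against 47.7 in the next mouse. That library also held the highest levels of the study for 4 of the 8 adipocyte markers (Adipoq, Plin1, Retn and Fabp4). WD replicate 3 of C57BL/6J was lowest for 3 genes: Cideb (30.1 CPM, next 42.9), Lipe (7.27 CPM, next 13.2) and Dgat2 (305 CPM, next 473). Its Adipoq level was 1.53 CPM, where 5 of 93 mice exceeded 1 CPM.

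Abhd5 had a single high mouse in 4 groups: DBA/2J CD replicate 6 (65.3 CPM, next 34.1), A/J CD replicate 1 (26.8, next 22.3), 129S1/SvImJ WD replicate 6 (30.5, next 24.0) and WSB/EiJ CD replicate 1 (29.5, next 21.2). The 129S1/SvImJ WD mouse was also highest for G0s2 (235 CPM, next 96.8). The other 4 were Plin3 in CAST/EiJ CD replicate 5 (47.4 CPM, next 36.9), Cideb in DBA/2J WD replicate 4 (73.0, next 58.1), Pnpla2 in CAST/EiJ WD replicate 5 (213, next 170) and Dgat2 in 129S1/SvImJ CD replicate 7 (885, next 731).

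The response to the WD differed between strains by the limma-voom F test for Dgat2 (adjusted p = 0.000465), Lipe (0.0123), Plin2 (0.0161), Plin3 (0.0221) and Pnpla2 (0.0378). Against the mean response of the other 6 strains, CAST/EiJ differed for Plin2 (-1.13), Pnpla2 (-0.66) and Lipe (-0.45), 129S1/SvImJ for Lipe (0.55), C57BL/6J for Dgat2 (0.42) and PWK/PhJ for Cideb (-0.32) and Dgat2 (-0.36), all on the log2 scale. The groups differ in the size of their CD spread, which for Plin2 was largest in CAST/EiJ.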

How the results depend on the processing

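No direction of a called change turned under any alternative. The number of members called in C57BL/6J was 3 when cohort entered the model, 3 with sample quality weights and 0 with a separate fit for each strain, against 1. In DBA/2J it was 1 with edgeR, DESeq2, sample quality weights or a separate fit, against 0: Plin2 by the first pair (-0.98 in each, adjusted p = 0.0104 and 0.00663) and Dgat2 by the latter (0.22 and 0.21, adjusted p = 0.047 and 0.0281). In A/J it was 4 with quality weights and 3 with a separate fit, against 1. In CAST/EiJ it was 4 with edgeR and with DESeq2, against 2. In PWK/PhJ it was 2 with edgeR and DESeq2 and 3 with quality weights and a separate fit, against 1. The interaction F test called 3 members with genes of any count kept and 6 with DESeq2, cohort or quality weights, against 5. When single mice were left out, the counts ran from 1 to 2 in C57BL/6J, A/J, 129S1/SvImJ and PWK/PhJ and from 2 to 3 in CAST/EiJ. For the other counts only the 5 A/J CD mice were left out in turn. These stayed at 0 in DBA/2J and WSB/EiJ, with 4 to 5 for the interaction, 10 for strain on CD and 9 for strain on WD. None of these 5 fits left out a WD mouse, so the count for strain on WD was not tested against single WD mice. Mice other than those of A/J CD were left out after the data were seen. The causes were not tested. Of the 70 values of gene and strain, 70 stayed on their side of the threshold under upper-quartile scaling, both other filters and the RIN covariate, 68 with cohort, 66 with edgeR and DESeq2, 64 with separate fits and 62 with quality weights. Over all genes, called genes in A/J went from 1725 to 3928 with quality weights and 2631 with a separate fit, in WSB/EiJ from 1708 to 2572 with quality weights, in C57BL/6J from 4998 to 2601 and in CAST/EiJ from 3727 to 2065 with a separate fit, and in CAST/EiJ to 2428 without CD replicate 5. Upper-quartile scaling changed the split of higher and lower genes from 2766 and 2593 to 3352 and 1643 in 129S1/SvImJ and from 839 and 886 to 961 and 668 in A/J. CPM per kb differs from CPM by a constant for each gene and cannot move a fold change. No paired analysis was possible because the labels give no replicate numbers that tie mice across groups, and the numbers used here only name mice.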
